A study of Mus musculus with 24 samples.

Results

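Integrins are receptors that hold cells to the extracellular matrix, and each receptor is a pair of an alpha and a beta chain. The 10 genes described here, of 56941 genes in the table, encode integrin alpha V (Itgav), the 5 beta chains that pair with it (Itgb1, Itgb3, Itgb5, Itgb6 and Itgb8), and alpha chains that pair with beta 1, beta 4 or both (Itga3, Itga6, Itga1 and Itga8). They are a list of gene names, drawn up with earlier results of these data known. Of the 10, 9 had enough counts for the gene-by-gene test between groups and Itgb3 did not. They were read in mouse kidneys after myocardial infarction (MI), with the question of whether the kidney's adhesion receptors differ after an injury of the heart. The data came from male wild-type C57BL/6J mice, young adults at surgery. By the study's methods, MI was made by tying off the left anterior descending artery for good, and sham mice had the surgery without the tie. The 22 kidneys used were 8 from sham mice, 8 taken 5d post-MI and 6 taken 28d post-MI. Sham mice were killed 5d after surgery and are the control for both times, so that at 28d post-MI the infarction and the time since surgery cannot be told apart. No gene was altered in any group. All comparisons with sham share the same 8 sham kidneys.

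Integrins that contain alpha V recognise a short arginine-glycine-aspartate motif in fibronectin, vitronectin, osteopontin and the latent form of TGF-beta. The pairs alpha V beta 6 and alpha V beta 8 are known for releasing active TGF-beta from its latent complex. In the kidney, alpha 3 beta 1 anchors podocytes to the glomerular basement membrane, alpha 8 beta 1 binds nephronectin during kidney development and is found on mesangial cells, and alpha 1 beta 1 binds collagen IV.

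The counts came from Massive Analysis of cDNA Ends (MACE), which reads a fragment at the 3′ end of each polyadenylated mRNA. Total counts per kidney ranged from 2280618 to 3786275. Values are CPM, which are counts scaled to a common library size after TMM normalization. Because a transcript gives a read at its 3′ end only, levels of different genes are compared in CPM, without division by transcript length. Levels divided by length are given for comparison only, as the division lowers genes with long transcripts. The kidneys carried kidney markers. The summed level of 6 proximal tubule genes was 5760 to 7080 CPM in sham kidneys, and that of 5 heart muscle genes was 6.74 to 23.1 CPM. Adrenal cortex markers reached 806 and 653 CPM in sham kidneys 2 and 6, and 81.7 CPM at most in any kidney at 5d post-MI. Markers of red blood cells summed to 2220 to 4150 CPM in sham kidneys, 5000 to 19100 CPM at 5d post-MI and 1820 to 5150 CPM at 28d post-MI.

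In sham kidneys the members held most of the integrin counts. They made up 92.0% of the summed mean CPM of 27 integrin subunits, with 91.2% and 93.4% in the kidneys at the ends of the range. Such shares, and the order of levels below, take all genes as counted equally well, which was not tested. The summed level of the 10 genes was 662 to 724 CPM in sham kidneys, 645 to 727 CPM at 5d post-MI and 659 to 710.2 CPM at 28d post-MI, so that the totals overlapped. Of the other 17 subunits, only Itga2b, Itga9, Itga7, Itgb4 and Itga5 were high enough to be tested, and the most abundant of them was Itga2b, the alpha chain of the platelet fibrinogen receptor, at 14.3 ± 2.85 CPM (SD, n = 8). The summed level of 4 other platelet markers was 0.832 to 5.31 CPM in the same kidneys. The leukocyte chains Itgb2, Itgal, Itgam and Itgax had means between 0.943 and 2.27 CPM.

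**Figure D1:**
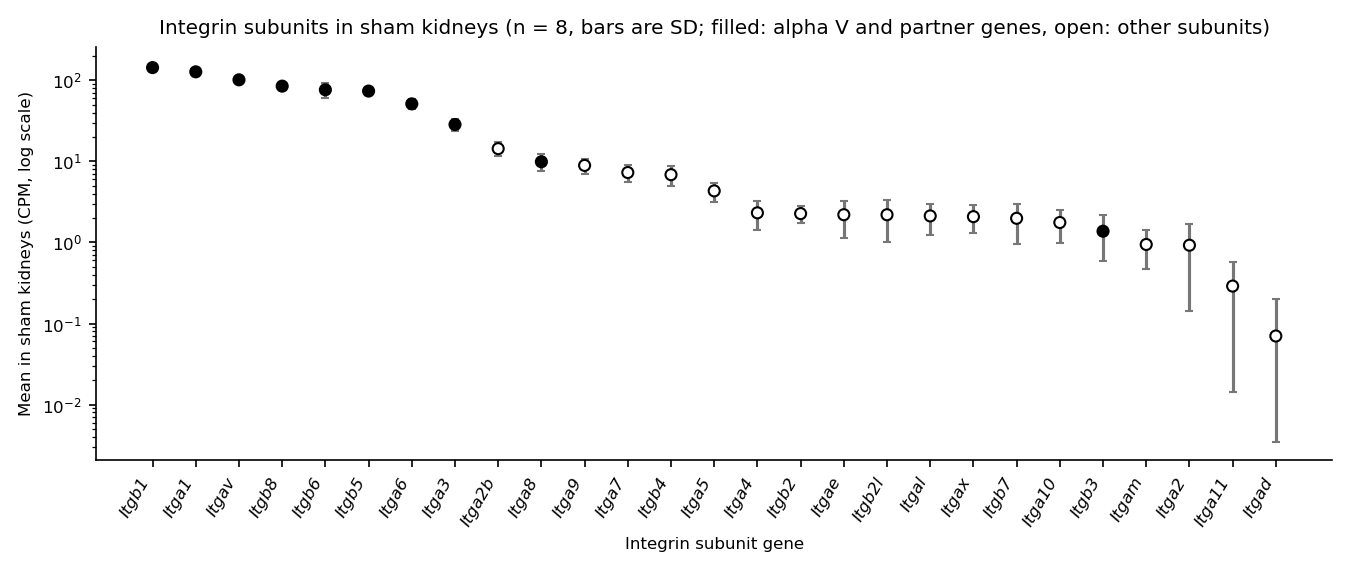
Mean level of 27 integrin subunit genes in 8 sham kidneys, in CPM on a log scale, with bars for the SD. For Itga11 and Itgad the SD is close to the mean or above it, and the lower bar is cut short on the log axis. Filled points are the 10 genes described here and open points the other subunits. Itgb1 lies highest at 143 CPM, and Itgb3 is the lowest of the 10 at 1.37 CPM.

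By CPM in sham kidneys the order was Itgb1, Itga1, Itgav, Itgb8, Itgb6, Itgb5, Itga6, Itga3, Itga8 and Itgb3. Itgb1, the common beta chain of many receptors, had a mean of 143 ± 7.51 CPM. Itga1, its partner for collagen, had 127 ± 8.84 CPM, and Itgav 101 ± 4.98 CPM. Each gene was compared with the next in the order within each kidney, by an exact permutation of the signs of the log2 ratios (two-sided, 256 sign flips, adjusted over 9 comparisons). The smallest p this design allows is 0.00781. Of the 9 neighbouring pairs, 7 differed. The difference between Itgb8 and Itgb6 was not resolved (mean log2 ratio 0.17 ± 0.38, SD, in the order given in 5 of 8 kidneys, exact permutation adjusted p = 0.264), nor was that between Itgb6 and Itgb5 (0.027 ± 0.35, 4 of 8 kidneys, exact permutation adjusted p = 0.828). Beta 5, beta 6 and beta 8, which are known to pair only with alpha V, thus lay next to each other in the CPM order.

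Divided by the length of the longest annotated transcript, the levels took another order. With reads from 3′ ends only, this order is not a better measure of transcript number than CPM. Itgb1 stayed first at 37.5 ± 1.97 CPM per kb and was followed by Itgb5 at 22.4 ± 1.81, Itgb6 at 15.9 ± 3.42 and Itgav at 14.35 ± 0.706 CPM per kb. Itga1, whose transcript of 10967 bases is the longest of the 10, went from the second place in CPM to the sixth per length, at 11.6 ± 0.806 CPM per kb. On this scale Itgb6 and Itgav did not separate (exact permutation adjusted p = 0.440), nor did Itga6 and Itga1 (exact permutation adjusted p = 0.719). Itgb8, at 10.1 ± 0.890 CPM per kb, came after Itga1 and so was not next to Itgb5 and Itgb6 on this scale. Itga3, Itga8 and Itgb3 came last on both scales. Itgb1 was highest on both.

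Itgav, the alpha chain shared by all 5 pairs, was the only member with an unadjusted p under 0.05 by edgeR. This was so at 5d post-MI against sham and between the times. The gene has the identifier ENSMUSG00000027087 and lies on chromosome 2 at 83724397 to 83806916 (plus strand, GENCODE M21 on GRCm38). Its lowest, median and highest levels were 92.8, 101 and 110.1 CPM in sham kidneys, 99.0, 115 and 129.7 CPM at 5d post-MI, and 84.1, 101 and 117 CPM at 28d post-MI. At 5d post-MI 6 of 8 kidneys were above every sham kidney, and the other 2 lay within the sham range. At 28d post-MI 3 of 6 kidneys were below every kidney at 5d post-MI.

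The level of Itgav was 1.12-fold higher at 5d post-MI than in sham kidneys (log2 fold change 0.17, SE 0.061, 95% interval 0.042 to 0.29). In edgeR's quasi-likelihood test this had an unadjusted p of 0.00982 and a Benjamini-Hochberg adjusted p of 0.458 over 12780 genes, so that Itgav was not a differentially expressed gene (DEG). Against 5d post-MI, the level at 28d post-MI was 0.882-fold (log2 fold change −0.18, SE 0.067, 95% interval −0.32 to −0.046, unadjusted p = 0.00999, edgeR adjusted p = 0.330). At 28d post-MI it stood close to sham, with a log2 fold change of −0.015 and a 95% interval of −0.15 to 0.12. The comparisons at 5d share the same 8 kidneys and are not independent of each other. DESeq2 gave an adjusted p of 0.598 and limma voom of 0.517 for 5d post-MI against sham. Over 31 alternative fits the log2 fold change stayed between 0.14 and 0.19 and the adjusted p between 0.338 and 0.698. The red blood cell markers given above also moved at 5d post-MI and back by 28d post-MI, and their part in the Itgav values was not tested. Without sham kidneys 2 and 6, which carried adrenal RNA, the log2 fold change at 5d post-MI was 0.17. As the RNA is of whole kidneys, fewer cells of a type and less RNA per cell cannot be told apart.

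**Figure D2:**
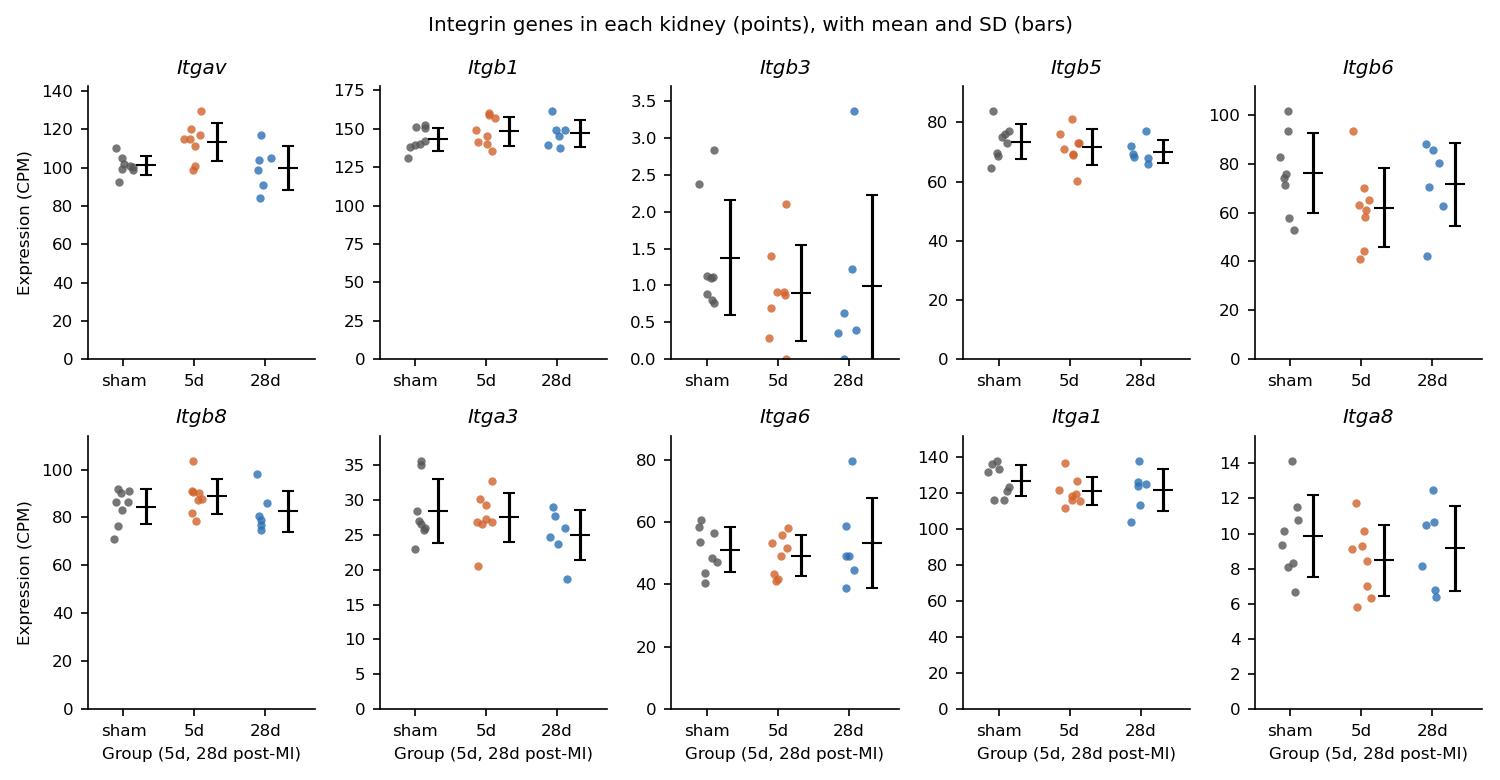
Levels of the 10 integrin genes in every kidney, in CPM from 0, for 8 sham kidneys, 8 taken 5d post-MI and 6 taken 28d post-MI. Points are kidneys and the bars at their right give the mean and SD. The groups overlap in every panel, and 6 of 8 kidneys at 5d post-MI lie above all sham kidneys for Itgav.

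None of the 9 members tested was a DEG by edgeR, whether 5d or 28d post-MI was set against sham or one time against the other. Among all genes tested, 0.0704%, 0.0235% and 0.415% were DEGs in these comparisons, and DESeq2 and limma voom also called 0 members. By direction the DEGs were 0.0548% higher and 0.0156% lower, 0.0235% higher and 0% lower, and 0.336% higher and 0.0782% lower. With an unadjusted p under 0.05 there was 1 member of 9 at 5d post-MI against sham, 0 at 28d post-MI against sham and 1 between the times, which was Itgav in both cases, beside 7.9%, 8.68% and 9.05% of all genes tested. Of these, 3.92%, 4.45% and 5.03% were higher and 3.97%, 4.23% and 4.01% lower. For no member did the groups fail to overlap, and over all genes this was the case for 0.0548%, 0.258% and 0.344%. The median log2 fold change of the 9 members was −0.044, −0.060 and −0.011, and that of all genes tested was 0.000176, −0.0012 and −0.0046.

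For Itgb1, Itgb5 and Itga1, all bounds of the 95% intervals against sham lay between −0.21 and 0.15 on the log2 scale. Itgb1 lies on chromosome 8 at 128685654 to 128733200 (plus strand). From lowest to median to highest, Itgb1 had 131, 141 and 152 CPM in sham kidneys, 135, 147 and 160.3 CPM at 5d post-MI, and 137, 147 and 162 CPM at 28d post-MI, with wide overlap of the groups. The log2 fold change was 0.051 at 5d post-MI (95% interval −0.050 to 0.15, edgeR adjusted p = 0.872) and 0.040 at 28d post-MI (95% interval −0.070 to 0.15, edgeR adjusted p = 0.901).

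Itgb5, a receptor chain for vitronectin, lies on chromosome 16 at 33829665 to 33949338 (plus strand). It was at 64.7, 74.1 and 83.9 CPM in sham kidneys, 60.2, 72.0 and 81.0 CPM at 5d post-MI, and 65.9, 68.8 and 77.3 CPM at 28d post-MI (lowest, median and highest). Its log2 fold change was −0.036 and −0.069 against sham, with 95% intervals of −0.16 to 0.089 and −0.21 to 0.067. Itga1 lies on chromosome 13 at 114953096 to 115101964 (minus strand). Its levels were 116, 127 and 138 CPM in sham kidneys, 112, 119 and 137 CPM at 5d post-MI, and 104, 125 and 138 CPM at 28d post-MI. Its mean in sham kidneys was above 7 of the 8 kidneys of the 5d group, with a log2 fold change of −0.070 (95% interval −0.18 to 0.044, edgeR adjusted p = 0.819). An antisense gene within Itga1, Gm10734, held 204 counts over all kidneys, beside 7986 counts of Itga1, and reads on either strand cannot be told apart where the counting did not use strand.

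Itgb8, which with alpha V binds latent TGF-beta, lies on chromosome 12 at 119158022 to 119238802 (minus strand). From lowest to median to highest it had 71.0, 86.4 and 92.0 CPM in sham kidneys, 78.5, 88.8 and 104 CPM at 5d post-MI, and 74.8, 79.8 and 98.2 CPM at 28d post-MI. The groups overlapped over most of their range. The log2 fold change was 0.068 at 5d post-MI (95% interval −0.062 to 0.20, edgeR adjusted p = 0.864) and −0.034 at 28d post-MI (95% interval −0.18 to 0.11).

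Itgb6, the epithelial partner of alpha V, varied between kidneys beyond counting error more than any other member tested. It lies on chromosome 2 at 60598292 to 60722643 (minus strand). From lowest to median to highest, its levels were 53.1, 75.0 and 102 CPM in sham kidneys, 40.9, 62.1 and 93.2 CPM at 5d post-MI, and 42.3, 75.3 and 87.9 CPM at 28d post-MI. The 5d group had 7 of 8 kidneys under the mean of sham, and 2 of them under its lowest kidney. At that time the log2 fold change was −0.31 (SE 0.17, 95% interval −0.67 to 0.059, unadjusted p = 0.0953, edgeR adjusted p = 0.712), and a decrease of that size cannot be told from the spread between kidneys. At 28d post-MI it was −0.10 against sham (95% interval −0.50 to 0.29).

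Itga3 and Itga6 encode laminin receptor chains. Itga3 lies on chromosome 11 at 95044474 to 95076801 (minus strand) and had levels of 23.0, 26.8 and 35.7 CPM in sham kidneys, 20.6, 27.1 and 32.8 CPM at 5d post-MI, and 18.7, 25.4 and 29.0 CPM at 28d post-MI. The 28d group had 5 of 6 kidneys under the mean of sham, with a log2 fold change of −0.18 (95% interval −0.41 to 0.042, edgeR adjusted p = 0.681). Itga6 lies on chromosome 2 at 71745616 to 71858416 (plus strand) and had levels of 40.6, 51.0 and 60.6 CPM in sham kidneys, 41.2, 50.5 and 58.0 CPM at 5d post-MI, and 38.9, 49.1 and 79.7 CPM at 28d post-MI. Replicate 3 at 28d post-MI held the highest level of Itga6, and without it the log2 fold change against sham turned from 0.066 to −0.078. Neither value differed from 0 in edgeR's test, with adjusted p of 0.939 and 0.932.

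Itga8, the mesangial chain, was the lowest of the members tested. It lies on chromosome 2 at 12106632 to 12301922 (minus strand). Its levels were 6.66, 9.75 and 14.2 CPM in sham kidneys, 5.79, 8.75 and 11.75 CPM at 5d post-MI, and 6.36, 9.30 and 12.5 CPM at 28d post-MI, from 16 to 40 counts per kidney. The log2 fold change was −0.21 at 5d post-MI (95% interval −0.55 to 0.14, edgeR adjusted p = 0.822) and −0.085 at 28d post-MI (95% interval −0.45 to 0.29), so that changes of moderate size were not detectable at this depth.

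**Figure D3:**
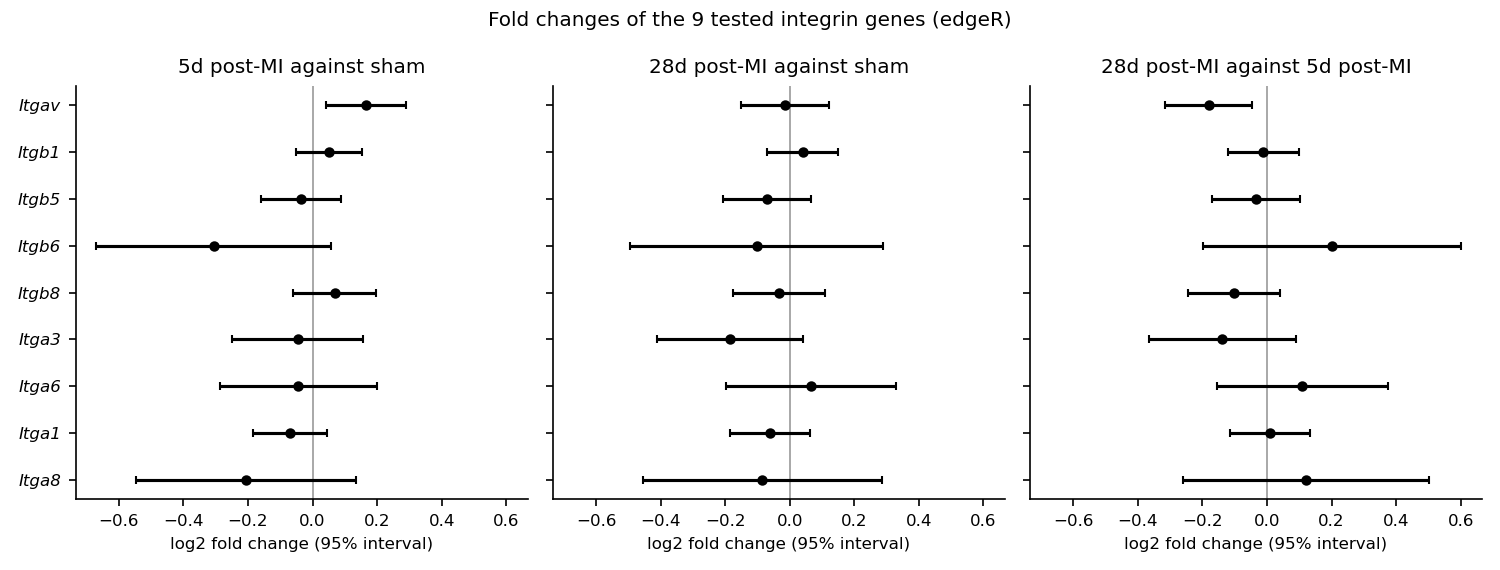
Log2 fold changes of the 9 integrin genes tested, with 95% intervals from edgeR's quasi-likelihood model, for each time post-MI against sham and for the later against the earlier time. The interval of Itgav lies above 0 at 5d post-MI and below 0 between the times, before adjustment over all genes, and those of the other genes hold 0.

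Itgb3, the beta chain of the vitronectin receptor and of the platelet fibrinogen receptor, was near the limit of detection. It lies on chromosome 11 at 104608000 to 104670476 (plus strand). Its lowest, median and highest counts were 2, 3.5 and 10 in sham kidneys, 0, 2.5 and 7 at 5d post-MI, and 0, 1.5 and 9 at 28d post-MI. Its counts summed to 35, 22 and 16 in the groups in this order. It was below the filter on low counts and did not enter the main edgeR test. The partner shares, the ratios to Itgav and the order of levels do include it. The count was 0 in 1 kidney at 5d post-MI and in 1 at 28d post-MI, and 0 counts allow up to 3 counts, or 1.27 and 1.21 CPM in these kidneys. This limit covers counting error only. Some genes in common use are also low in the table. Ilk, a kinase at integrin tails, was at 0 counts in all 22 kidneys, and Vcl, the gene of vinculin, had at most 4 counts in any kidney. A low count in the table is thus not by itself a low level in the tissue.

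The spread between kidneys was compared with the spread that counting alone would give. The ratio of the SD within groups to the counting SD (both on the log2 scale) was 1.11 for Itgb5, 1.20 for Itgb1, 1.24 for Itga8 and 1.29 for Itga3. Itgb8, Itga1 and Itgav had ratios of 1.41, 1.43 and 1.49. Itga6 had a ratio of 2.10 and Itgb6 of 3.43. Kidneys thus differed in Itgb6 by more than counting error, with an SD of 0.360 against 0.105, while Itga8 had an SD of 0.357 at a counting SD of 0.288. In sham kidneys Itgav had a coefficient of variation of 4.92%, beside 5.72% from counting alone, and in the groups post-MI it had 8.82% (5d) and 11.55% (28d), beside 5.52% and 6.12% from counting.

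**Figure D4:**
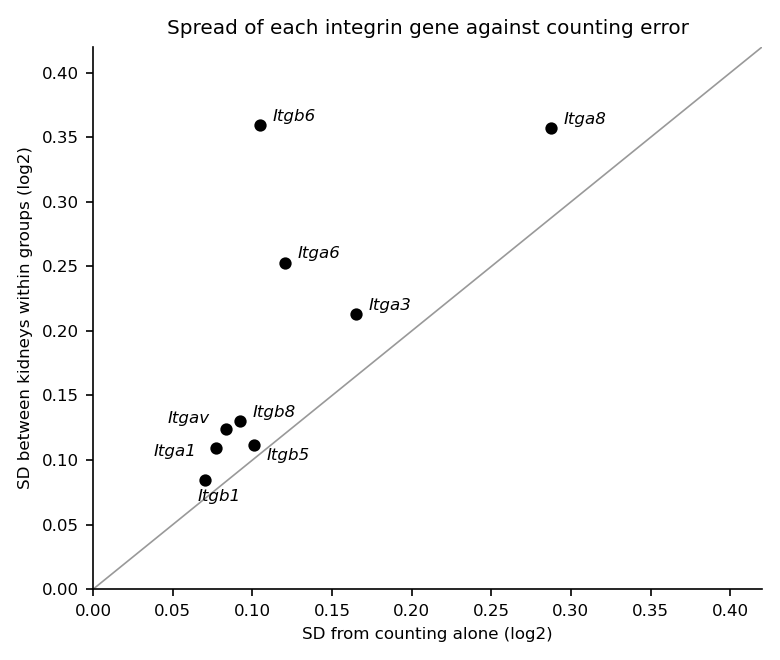
SD between kidneys within groups (22 kidneys, log2 scale) against the SD that counting alone gives, for the 9 integrin genes tested. The line marks equality. Itgb6 and Itga6 lie farthest above the line in proportion, with ratios of 3.43 and 2.10, and Itgb5 lies closest to it.

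The makeup of the beta partners was compared within each kidney, which removes differences in depth. Of the counts of the 5 partners, Itgb1 held 37.8% ± 2.31, Itgb8 22.4% ± 2.33, Itgb6 20.01% ± 3.56, Itgb5 19.4% ± 1.70 and Itgb3 0.358% ± 0.188 in sham kidneys (mean ± SD, n = 8). Itgb1 also pairs with many other alpha chains, so that its share is not a share of alpha V receptors. The largest difference in share was that of Itgb6 at 5d post-MI, with 16.5% ± 3.48 against 20.01% ± 3.56, a difference of −3.47 percentage points (exact permutation test, two-sided, 12870 splits, p = 0.0702, adjusted over 15 comparisons 0.512). For the other shares the adjusted p was between 0.512 and 0.887 by the exact permutation test. At 28d post-MI Itgb1 had 39.6% ± 2.95, Itgb8 22.2% ± 1.78, Itgb6 19.1% ± 4.18 and Itgb5 18.9% ± 0.459 (n = 6).

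The ratio of Itgav to each partner was higher at 5d post-MI than in sham kidneys for all 5 partners, none of them past the threshold after adjustment. The ratios share Itgav and are not independent. The log2 ratio of Itgav to Itgb5 was 0.66 ± 0.20 at 5d post-MI and 0.46 ± 0.10 in sham kidneys, a difference of 0.20 (exact permutation p = 0.0211, adjusted p = 0.135). For Itgb6 it was 0.91 ± 0.41 against 0.44 ± 0.36, a difference of 0.47 (exact permutation p = 0.0270, adjusted p = 0.135). For Itgb1 the difference was 0.11 (exact permutation p = 0.0510, adjusted p = 0.191) and for Itgb8 0.091 (exact permutation p = 0.210, adjusted p = 0.350). For Itgb3 it was 0.84 (exact permutation p = 0.0699, adjusted p = 0.210). That value rests on 0 to 7 counts per kidney at 5d post-MI and 2 to 10 in sham, and so on the 0.5 counts added. Between 28d and 5d post-MI the lowest p was that of Itgb1, with a difference of −0.17 (exact permutation p = 0.00866, adjusted p = 0.130). This difference passed the threshold when replicate 9 at 5d post-MI was left out (−0.19, exact permutation adjusted p = 0.0437) or replicate 3 at 28d post-MI (−0.21, exact permutation adjusted p = 0.0466), and in no other setting tried.

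**Figure D5:**
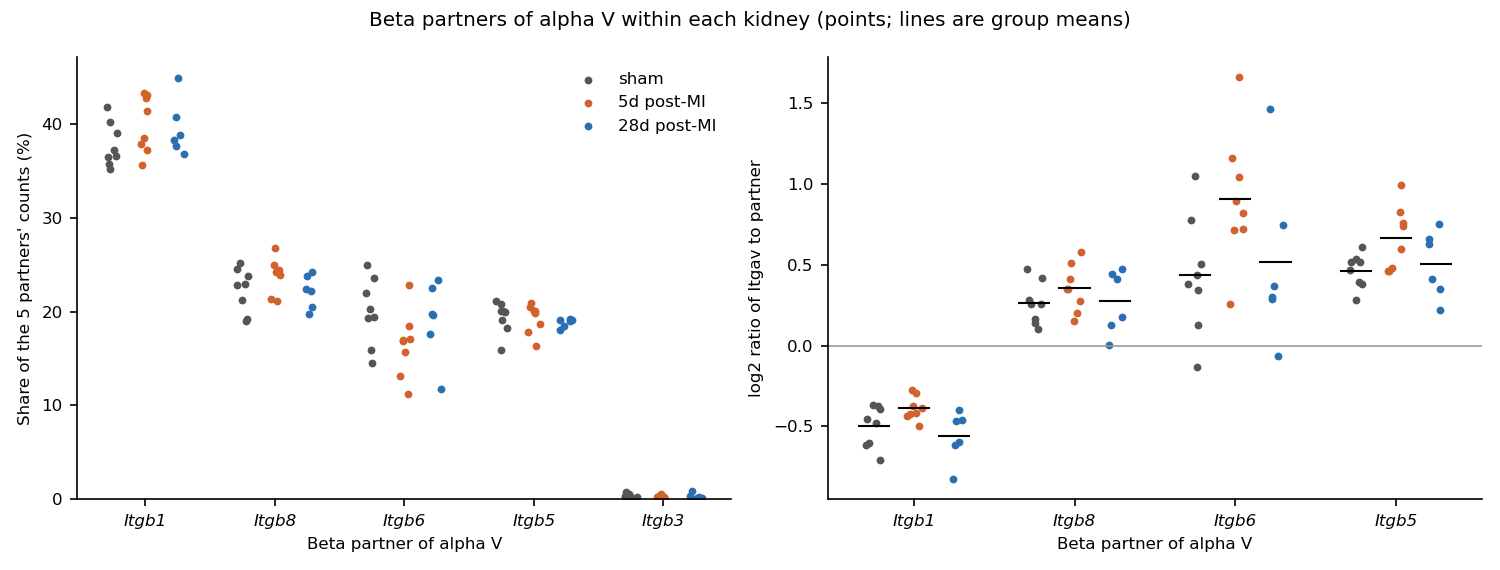
Left, the share of each beta chain in the summed counts of the 5 partners of alpha V, in percent, in each kidney. Right, the log2 ratio of Itgav to 4 of the partners in each kidney, with lines for the group means and Itgb3 left out for its few counts. The groups overlap in every column, and the means at 5d post-MI lie above those of sham in the right panel.

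Across the 22 kidneys Itgav was compared with each of the other 8 members tested, on log2 CPM with the mean of each group removed. The permutation tests used 100000 resamples within groups. Pearson's r was between −0.445 for Itgb6 and 0.394 for Itgb1, and the lowest adjusted p over the 8 relations was 0.371. For Itgb6 the permutation p was 0.062, Spearman's rho was −0.398 (permutation p = 0.089, adjusted p = 0.497), and r was −0.225 without the 2 kidneys farthest from the median of Itgav. A second comparison kept the group means and covered 6674 genes with a mean of at least 20 CPM. The 5 with the highest r with Itgav were Ucp2 (a mitochondrial carrier) with 0.743, Vezf1 (a zinc finger transcription factor) with 0.724, Sin3b (a corepressor) with 0.693, Vnn1 (pantetheinase) with 0.689 and Klf6 (a zinc finger transcription factor) with 0.686. These are the upper end of many comparisons over 22 kidneys of shared groups and libraries, and they fell to between 0.587 and 0.675 within groups. None of the 5 is a member.

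The wider integrin pathway was read through lists of its parts. Of 16 tested ligands of alpha V, alpha 5 and alpha 8 integrins, 1 fell at 5d post-MI, 0 were called at 28d post-MI, and 1 rose between the times by edgeR. The called ligand was Ccn1 in both cases, a matricellular protein bound by alpha V receptors. With an unadjusted p under 0.05, 2 ligands were lower at 5d post-MI (Ccn1 and Postn) and 1 was lower at 28d post-MI (Spp1), with 0 higher at either time against sham. Between the times 2 were higher, Ccn1 among them, and 1 was lower (Spp1). From lowest to median to highest, Ccn1 was at 118, 191 and 234 CPM in sham kidneys, 42.7, 87.4 and 124 CPM at 5d post-MI, and 173, 259 and 338 CPM at 28d post-MI. For Ccn1 the kidneys at 28d post-MI were all above those at 5d post-MI. Ccn1 had a log2 fold change of −1.16 at 5d post-MI (SE 0.21, edgeR adjusted p = 0.0423) and 1.59 between the times (SE 0.22, edgeR adjusted p = 0.00186). With 1 kidney left out the log2 fold change at 5d post-MI stayed between −1.26 and −1.05, while the adjusted p, up to 0.106, no longer passed in 20 of 22 fits. Without the sham kidneys 2 and 6 it was −1.21, with an edgeR adjusted p of 0.133. The call between the times held in all 31 alternatives. The median log2 fold change of the ligands was −0.16 at 5d and 0.013 at 28d post-MI against sham, and 0.127 between the times.

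Osteopontin (Spp1), a secreted ligand of alpha V receptors, was the most abundant ligand by CPM, with a median of 594 CPM in sham kidneys, 629 CPM at 5d post-MI and 539 CPM at 28d post-MI. It ranged from 523 to 711 CPM in sham kidneys, from 582 to 755 CPM at 5d post-MI and from 445 to 582 CPM at 28d post-MI, where the highest kidney was just below the lowest at 5d post-MI. Spp1 had log2 fold changes of 0.12 at 5d post-MI (edgeR adjusted p = 0.676), −0.16 at 28d post-MI (edgeR adjusted p = 0.530) and −0.28 between the times (SE 0.071, edgeR adjusted p = 0.0713). The latter passed in 6 of 31 alternatives, among them DESeq2 with an adjusted p of 0.0499. Postn, the gene of periostin, was at 0.914 to 7.51 CPM over sham and 5d post-MI, with a log2 fold change of −0.52 at 5d post-MI (unadjusted p = 0.0426, edgeR adjusted p = 0.617). Npnt, the gene of nephronectin and the ligand of alpha 8 beta 1, had medians of 70.8, 61.9 and 77.6 CPM, with log2 fold changes of −0.11 and 0.055 against sham (edgeR adjusted p = 0.911 and 0.963).

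Of 26 adaptors and kinases of integrin adhesions tested, 0 were called in any of the comparisons by edgeR. With an unadjusted p under 0.05, 1 was higher at 5d post-MI, 1 was higher and 1 lower at 28d post-MI, and 1 was lower between the times. At 5d post-MI this was Ptk2, the focal adhesion kinase (log2 fold change 0.19, unadjusted p = 0.0244, edgeR adjusted p = 0.564), and the lowest p among the lower ones was that of Flna, the gene of filamin A (−0.12, edgeR adjusted p = 0.728). At 28d post-MI they were Zyx, the gene of zyxin (0.19, edgeR adjusted p = 0.558), and Lims2, an adaptor of the Ilk complex (−0.22, edgeR adjusted p = 0.543). Lims2 was also the one between the times (−0.21, edgeR adjusted p = 0.541), where Src had the lowest p among the higher ones (0.15, edgeR adjusted p = 0.707). The median log2 fold change of this list was −0.0080, −0.029 and −0.013.

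Of 19 tested genes of the basement membrane, which alpha 1, alpha 3 and alpha 6 integrins bind, 0 were called by edgeR in any comparison. With an unadjusted p under 0.05 by edgeR, 2 were lower at each time against sham, beside 3.97% (5d) and 4.23% (28d) of all genes tested. The log2 fold change was below 0 for 15 of 19 at 28d (median −0.071) and for 11 of 19 at 5d (median −0.031). All genes tested had medians of −0.0012 and 0.000176, and the list was not tested as a set. Hspg2, the gene of perlecan, had the lowest p at 5d post-MI (log2 fold change −0.27, SE 0.065, unadjusted p = 0.000197, edgeR adjusted p = 0.119). Its lowest, median and highest levels were 56.4, 66.2 and 71.8 CPM in sham kidneys, 50.5, 53.7 and 64.8 CPM at 5d post-MI, and 51.7, 57.4 and 63.6 CPM at 28d post-MI. Col4a1, a chain of collagen IV and so of the ligand of alpha 1 beta 1, had a log2 fold change of −0.22 at 28d post-MI (unadjusted p = 0.00655, edgeR adjusted p = 0.364) and of −0.15 between the times. Lama3, a laminin chain, had the lowest p among the higher ones at both times (0.14 and 0.12, edgeR adjusted p = 0.887 and 0.906), and Lama2 between the times (0.37, edgeR adjusted p = 0.635).

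Of 8 tested genes of latent TGF-beta and its receptors, 0 were called by edgeR in any comparison, and 1 had an unadjusted p under 0.05. This was Tgfbr1, the type I receptor, at 28d post-MI (log2 fold change 0.20, unadjusted p = 0.0285, edgeR adjusted p = 0.521), which at 5d post-MI had 0.083 (edgeR adjusted p = 0.873). Tgfbr2, the type II receptor, had −0.15 and −0.13 (edgeR adjusted p = 0.647 and 0.698). Ltbp4, a latent TGF-beta binding protein, had 0.19 between the times (edgeR adjusted p = 0.622), and Nrros, which holds latent TGF-beta on macrophages, −0.076 (edgeR adjusted p = 0.978). Tgfb1 itself, the ligand released by alpha V beta 6 and alpha V beta 8, had medians of 8.16, 7.47 and 7.60 CPM. Of the 5 other integrin subunits tested, 0 were called by edgeR and 0 had an unadjusted p under 0.05. At 5d post-MI Itga2b had a log2 fold change of 0.051 and Itga5, a fibronectin receptor chain, −0.45 (edgeR adjusted p = 0.958 and 0.703). At 28d post-MI Itga7 had 0.13 and Itga9 −0.24 (edgeR adjusted p = 0.912 and 0.762), and between the times Itga5 had 0.11 and Itga2b −0.24 (edgeR adjusted p = 0.956 and 0.657).

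Markers of the cells that carry these receptors were read beside them. The summed level of 6 podocyte genes was 153 to 190.0 CPM in sham kidneys, 176 to 252 CPM at 5d post-MI and 161 to 223 CPM at 28d post-MI. Itga3, an alpha chain of podocytes, had medians of 26.8, 27.1 and 25.4 CPM. The summed level of 7 genes of mesangium and pericytes was 290 to 384 CPM in sham kidneys, 358 to 598 CPM at 5d post-MI and 249 to 345 CPM at 28d post-MI. Ren1, the gene of renin, had a log2 fold change of 0.87 at 5d post-MI (edgeR adjusted p = 0.1005) and fell between the times (−1.15, edgeR adjusted p = 0.00886). Counted gene by gene, 5 of the 7 genes were below sham at 5d post-MI (median −0.175 on the log2 scale). Among them Pdgfrb had −0.29, Notch3 −0.35 and Acta2 −0.26 (edgeR adjusted p = 0.501, 0.501 and 0.549). At 28d post-MI 7 of 7 were below sham (median −0.215). Of 6 fibroblast genes, 5 were below sham at 5d (median −0.165) and 6 at 28d post-MI (median −0.319). For 7 endothelial genes it was 6 (median −0.153) and 3 (median 0.0459). For the 6 leukocyte genes tested it was 6 (median −0.352) and 4 (median −0.0956). No gene of these lists was called by edgeR against sham. Urothelial markers summed to 14.8 to 50.7 CPM in sham kidneys (median 32.9), 9.45 to 52.4 CPM at 5d post-MI (median 13.2) and 12.9 to 22.4 CPM at 28d post-MI (median 18.7). The 3 of them tested had log2 fold changes below 0 at both times, and 0 were called by edgeR, with 1 at an unadjusted p under 0.05 at each time. Adipocyte markers had medians of 1210, 1080 and 563 CPM, and with their mean level as a covariate the log2 fold change of Itga6 at 5d post-MI went from −0.044 to 0.066 and that of Itga8 at 28d post-MI from −0.085 to 0.046. The part of these marker levels in the values of the members was not tested.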

How the data were processed

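The authors prepared MACE libraries with unique molecular identifiers, and the submitters' processing notes name cutadapt, FastQC, Bowtie2, HTSeq and DESeq2. The study's methods name mm10 and the processing notes mm39, so coordinates are given from GENCODE M21 (GRCm38), which held 51948 of 56941 identifiers. The strand setting is not given in the sources used here. The deposited counts are whole numbers per gene without normalization. Of 48 columns of values, 4 (2 of counts, 2 of tpm) share a name and could not be assigned, so 1 kidney of each MI group was not analysed here. The tpm columns were not used.

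Genes were kept by edgeR's filterByExpr (minimum count 10, 12780 of 30116 genes with a count), normalized by TMM and tested with edgeR's robust quasi-likelihood F test on 3 groups, two-sided, without covariates. DEGs had a Benjamini-Hochberg adjusted p under 0.05. Intervals are 95% intervals of the fit. Partner shares and ratios (0.5 counts added) and the order of levels were tested by exact permutation. Software was R 4.3.3, edgeR 4.0.16, limma 3.58.1, DESeq2 1.42.0, Python 3.11.15, numpy 2.4.6 and scipy 1.17.1, and the fit was tested on simulated data. Alternatives were DESeq2, limma voom, other scalings, no filter, a replicate block, an adipocyte covariate, fits without kidneys of high adrenal RNA (over 100 CPM), fits on the groups compared, and each kidney left out.

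The members and lists were chosen with earlier results of these data known. Named genes are the members, Spp1, Postn and Npnt, list genes that were called or, where none was, had the lowest p in each direction, and the 5 genes most like Itgav. Itgb2, Itgal, Itgam, Itgax, Ilk, Vcl, Tgfb1 and Ren1 were added after values were seen. The labels do not state that kidneys of a group came from separate mice, which the study's methods describe. No pair of kidneys of a group held the same counts within sampling noise (71 pairs, chi-squared over degrees of freedom 1.69 to 7.21), which speaks only to a library deposited more than once, not to separate animals.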

Additional observations from a re-analysis of the deposited data

Results flagged for a closer look

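In the 28d post-MI group, 1 kidney held 3.37 CPM of Itgb3, far from the other 5, which lay between 0 and 1.22 CPM. It rests on 9 counts. Over 30 groups of members' values this was the 1 such kidney, and chance gives about 1 in 20 groups. Ccn1 differed between the times after MI, with a log2 fold change of 1.59 at 28d against 5d post-MI (edgeR adjusted p = 0.00186), the test of the difference itself. Its level was above that of every kidney at 5d post-MI in 6 of 6 kidneys at 28d post-MI.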

How the results depend on the processing

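In all 31 alternatives of each comparison 0 members were called. The number of genes called among all tested depended strongly on the setting, and the cause was not tested. At 5d post-MI against sham, 9 as reported, it was 36 by DESeq2, 5 by limma voom, 5 with library totals only, 80 without a filter, 1 with the adipocyte covariate, 1 without the kidneys with adrenal RNA and 2 with only the groups compared. At 28d post-MI against sham, 3 as reported, it was 33 by DESeq2, 5 by limma voom, 1 with library totals only, 94 without a filter, 1 without the kidneys with adrenal RNA and 31 with only the groups compared. Between the times, 53 as reported, it was 91 by DESeq2, 160 without a filter and 26 with only the groups compared. With 1 kidney left out, it was 1 (without sham replicate 2 and without several others) to 38 (without replicate 1 at 5d), 0 (without replicate 2 or 7 at 28d) to 29 (without sham replicate 8), and 41 (without replicate 2 or 5 at 5d) to 84 (without replicate 1 at 5d).

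Replicate numbers name different mice. Over 18 pairs of kidneys with the same number, deviations correlated at −0.127 to 0.0899, and 3 kidneys matched their own number best. With the replicate block, 2, 24 and 80 genes were called, and the log2 fold change of Itga3 at 5d post-MI turned to 0.0016 and that of Itga1 between the times to −0.034.

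Other reversals were of values near 0. With the adipocyte covariate Itga6 at 5d post-MI was 0.066 and Itga8 at 28d post-MI 0.046. With library totals only Itga1 between the times was −0.018, and by limma voom Nrros was 0.010. With 1 kidney left out, log2 fold changes ranged at 5d post-MI from −0.088 to 0.010 for Itga3 and from −0.0099 to 0.11 for Itga2b. At 28d post-MI they ranged from −0.069 to 0.031 for Itgav, −0.17 to 0.016 for Itgb6, −0.078 to 0.14 for Itga6, −0.032 to 0.23 for Itga7 and −0.00095 to 0.12 for Npnt. Between the times they ranged from −0.045 to 0.0082 for Itgb1, −0.034 to 0.18 for Itga6, −0.028 to 0.051 for Itga1, −0.075 to 0.27 for Itga5 and −0.21 to 0.060 for Nrros. Differences in share ranged, in percentage points, from −0.648 to 0.283 for Itgb5 at 5d post-MI, −1.74 to 0.594 for Itgb6 and −0.666 to 0.294 for Itgb8 at 28d post-MI, and −1.50 to 0.113 for Itgb1 and −0.101 to 0.0722 for Itgb3 between the times. Differences in the log2 ratio of Itgav to a partner ranged at 28d post-MI from −0.0088 to 0.098 for Itgb5, −0.11 to 0.20 for Itgb6 and −0.030 to 0.064 for Itgb8. Between the times they ranged from −0.44 to 0.44 for Itgb3. For Itgb1 they ranged from −0.21 to −0.12 between the times, without a reversal. In the 6 kidneys at 28d post-MI the order of levels by mean was the same as in sham kidneys. It gave 0 of 9 pairs past the threshold, where the smallest p is 0.0312, against 7 in sham kidneys. Pairs that held the order in 6 of 6 kidneys reached this smallest p, with an exact permutation adjusted p of 0.05625. At 5d post-MI Itgb5 came before Itgb6, and the order was otherwise that of sham. Ratios with a pseudocount of 2 counts kept their direction. Depth limits Itgb3 and Itga8.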

Other observations

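Itgb6 was read against all genes with a mean of at least 20 CPM after its values had been seen. The highest Pearson's r over the 22 kidneys was that with Ppm1h, a protein phosphatase, at 0.849 (Spearman's rho 0.853, r within groups 0.822). The next were Slc29a3, a nucleoside transporter, with 0.780 and Clpx, a subunit of a mitochondrial protease, with 0.778. For Itga3 the highest was Slco4a1 with 0.774, followed by Abcc5 with 0.722. Then came Gata3, a transcription factor that is also in the list of mesangial markers, with 0.707, and Muc1 with 0.706. These are descriptions from 6674 comparisons in shared libraries of whole kidneys, and they do not show which cells expressed a gene.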
